A study of Mus musculus with 20 samples.

Results

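The imprinted growth genes H19, Igf2, Igf2r, Grb10, Cdkn1c, Dlk1, Meg3, Peg3, Plagl1 and Mest were followed in the soleus and gastrocnemius of mice after 24 h of hind-limb suspension (HLS). Members were the probes of the array that carry 1 of these gene names (Meg3 is written Gtl2 in the files), which gave 22 of 41174 noncontrol probes for the 10 genes. All 22 passed the filter on dim probes, which 37373 probes passed, and 20 of the 22 were well above background on all 20 arrays. The exceptions were Peg3 A_52_P235861, measured on 2 of 5 gastrocnemius control arrays, and Plagl1 A_51_P432034, measured on 1 of 5 arrays in each gastrocnemius group.

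The 4 groups were HLS soleus, control soleus, HLS gastrocnemius and control gastrocnemius, with 5 one-colour arrays each. All animals were male ICR mice aged 6 months, an outbred stock with no engineered allele named in the labels. HLS mice hung by the tail, so that the hind limbs bore no weight, and control mice moved freely in their cages. Soleus and gastrocnemius with the same animal number in an arm's labels were taken as those of 1 mouse. RNA came from whole muscle, in which fewer cells of a type and less RNA per cell cannot be told apart, and the arrays do not separate the parental alleles. A level here is the log2 of a probe's processed signal minus the 75th percentile of its array, a change is a difference of group means ± SE from limma, and a probe was called at an adjusted p below 0.05. Levels of different probes are not comparable.

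Imprinted genes are expressed mainly from the allele inherited from 1 parent, a state set by DNA methylation in the germ line. In the mouse, Igf2, Dlk1, Peg3, Plagl1 and Mest are expressed from the paternal allele, and H19, Meg3, Cdkn1c, Igf2r and, in most tissues, Grb10 from the maternal allele. Many act on fetal and postnatal growth. H19 and Igf2 share enhancers on chromosome 7, Dlk1 and Meg3 share a control region on chromosome 12, and in muscle Igf2, H19 and Dlk1 are best known from development and regeneration.

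Some of these transcripts also carry microRNAs, small RNAs that bind targets mainly through their seed. The RefSeq table (GRCm38.p6) places miR-675 inside H19, miR-483 inside Igf2, miR-335 inside Mest and miR-770 inside Meg3. 1 mature sequence of each is shown, 5′ to 3′, because the host transcripts below are what the probes measured and the microRNAs themselves were not measured. Capitals mark the seed, bases 2 to 8, and the 4 seeds differ.
miR-675-5p, chr7:142577112-142577133, minus strand: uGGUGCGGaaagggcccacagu
miR-483-3p, chr7:142654932-142654952, minus strand: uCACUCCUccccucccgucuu
miR-335-5p, chr6:30741314-30741336, plus strand: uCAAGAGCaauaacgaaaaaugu
miR-770-5p, chr12:109563710-109563731, plus strand: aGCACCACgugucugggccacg

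Peg3 and Grb10 were called in HLS soleus, and their RefSeq promoters (250 bases before to 50 after a transcript's start, GRCm38.p6) are shown with their CpG dinucleotides marked. Promoters of 8 of the 10 genes matched by symbol. Capitals mark the dinucleotide CG, which reads the same on both strands, and methylation was not measured. The Grb10 window of the outer start holds 45 CG, a number reached by 1.93% of the 32851 promoters in the table. The window of the inner Grb10 start holds 9 (reached by 45.8%) and that of Peg3 holds 13 (reached by 37.9%), against a median of 7 over the table.
Grb10, outer start, chr11:12037371-12037670, minus strand: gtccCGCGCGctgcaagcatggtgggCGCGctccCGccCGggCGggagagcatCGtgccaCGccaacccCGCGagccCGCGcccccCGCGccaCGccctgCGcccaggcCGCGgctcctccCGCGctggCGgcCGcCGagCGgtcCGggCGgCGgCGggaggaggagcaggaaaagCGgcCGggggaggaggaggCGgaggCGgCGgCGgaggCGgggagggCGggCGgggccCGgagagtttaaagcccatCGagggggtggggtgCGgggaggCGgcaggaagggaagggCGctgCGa
Grb10, inner start, chr11:12027922-12028221, minus strand: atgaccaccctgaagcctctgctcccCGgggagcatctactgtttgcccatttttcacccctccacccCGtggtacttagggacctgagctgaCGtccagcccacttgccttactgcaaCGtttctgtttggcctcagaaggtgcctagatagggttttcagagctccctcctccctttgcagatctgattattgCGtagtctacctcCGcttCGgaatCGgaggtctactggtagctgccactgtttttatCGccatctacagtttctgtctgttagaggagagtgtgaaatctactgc
Peg3, chr7:6730370-6730669, minus strand: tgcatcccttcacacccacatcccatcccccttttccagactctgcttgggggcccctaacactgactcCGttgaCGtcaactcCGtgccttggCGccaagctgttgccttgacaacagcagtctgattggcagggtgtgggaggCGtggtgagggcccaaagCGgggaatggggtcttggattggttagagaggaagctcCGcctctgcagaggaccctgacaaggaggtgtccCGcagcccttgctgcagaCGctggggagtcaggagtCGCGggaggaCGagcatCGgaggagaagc

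On each array 80.75% to 93.08% of the probes passed the scanner's test of being well above background, and precision is limited by having 5 arrays a group. All 14 muscle fibre markers were measured, of which 8 were higher and 4 lower in soleus than in gastrocnemius of controls, and their summed level relative to the percentile was 3500 to 4730 in HLS soleus, 3560 to 4520 in control soleus, 2830 to 3580 in HLS gastrocnemius and 3100 to 3610 in control gastrocnemius. The arrays lay on 6 slides and were scanned on 3 days, and no slide held both muscles. Both soleus groups met only on slide 5 (3 HLS and 1 control) and scan day 2 (3 and 5). Both gastrocnemius groups met only on slide 2 (1 HLS and 3 control) and scan day 1 (1 and 5). Among the other arrays of a muscle, HLS cannot be told apart from slide or scan day. The added E1A spike-in RNA stood at 1.55 to 2.01 in HLS soleus, 1.43 to 1.54 in control soleus, 1.69 to 2.01 in HLS gastrocnemius and 2.45 to 2.65 in control gastrocnemius, so every change below is relative to the 75th percentile. Scaled to E1A, the median change of all probes moves to -0.21 in HLS soleus and 0.79 in HLS gastrocnemius, against 0.05 and 0.01 here.

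The first comparison asks which of these genes respond to 1 day without load. In soleus 3 of the 10 genes were called by their brightest probe, against 2.29% higher and 3.41% lower of all genes. Cdkn1c and Peg3 were higher and Grb10 lower in HLS mice, by 1.72-fold, 1.55-fold and 1.71-fold. Grb10 and Peg3 were each called at 1 of 3 probes, and none of the 3 calls remained with slide as a fixed block. The fetal growth pair Igf2 and H19, the receptor Igf2r, Dlk1, Meg3, Plagl1 and Mest gave no call. In gastrocnemius no gene was called, although Cdkn1c stood 1.73-fold higher there in HLS mice. By probe, 3 of 22 were called in soleus, 2 higher and 1 lower, against 5.42% of all tested probes (2.21% higher and 3.21% lower). In gastrocnemius 0 of 22 were, against 2.83% (1.09% and 1.74%). At an unadjusted p below 0.05 limma gave 4 of the 22 in soleus, against 6533 of all 37373 probes, and 5 in gastrocnemius, against 5350. Groups did not overlap at 2 member probes in each muscle, Cdkn1c and Grb10 A_52_P115787, against 4.86% of all probes in soleus and 7.06% in gastrocnemius. The median change over the 22 probes was 0.05 in soleus, as over all probes, and 0.03 in gastrocnemius, against 0.01 over all probes.

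**Figure D1:**
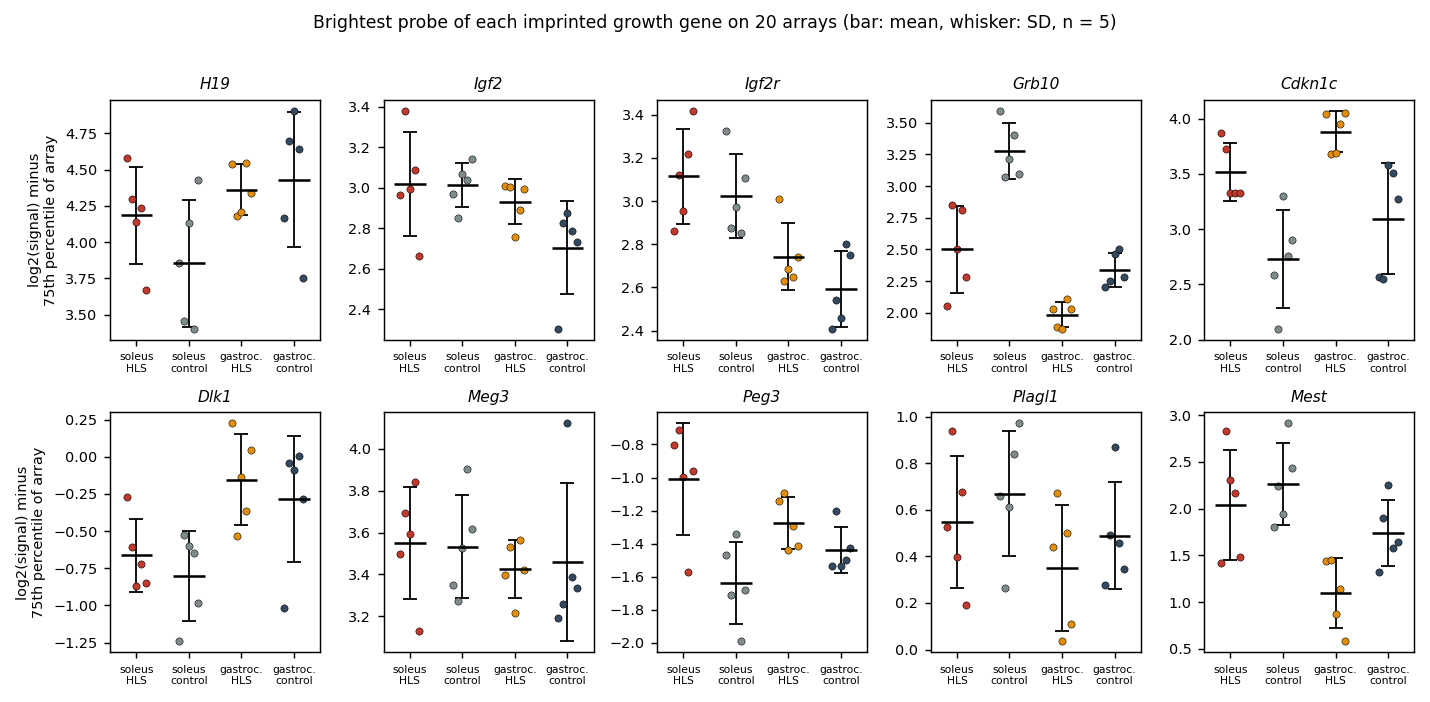
Level of the brightest probe of each gene on each of the 20 arrays (vertical axis, log2 of signal minus the 75th percentile of the array; each panel has its own range), with group mean and SD of 5 arrays, HLS left of control within each muscle. In both muscles all 5 HLS arrays lie above all 5 control arrays for Cdkn1c and below them for Grb10, whose gastrocnemius change turns sign when scaled to E1A.

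Cdkn1c encodes p57, an inhibitor of cyclin-dependent kinases that holds cells out of the cycle. Its level was 3.87, 3.73, 3.32, 3.33 and 3.33 in HLS soleus, against 2.59, 2.10, 3.30, 2.76 and 2.90 in control soleus. All 5 HLS arrays were above all 5 control arrays, as for 2.12% of all probes in soleus. The change was 0.78 ± 0.22 (limma, adjusted p = 0.0391). In gastrocnemius the level was 4.04, 3.68, 3.69, 3.95 and 4.05 in HLS mice, against 2.57, 2.54, 3.58, 3.51 and 3.28 in control mice, again without overlap, as for 3.02% of all probes higher there. That change was 0.79 ± 0.22 with an adjusted p of 0.0569, just short of the threshold, and the effects of the 2 muscles differed by -0.00 (95% interval -0.65 to 0.64). The soleus call was lost without any 1 of HLS 1, 2, 3 and 5 or control 1, 2 and 4 (adjusted p 0.0504 to 0.0967), while the change stayed between 0.63 and 0.93 without any 1 array. On slide 5, which held 3 HLS and 1 control soleus, the difference was 0.74, and on scan day 2, with 3 and 5, it was 0.91. In gastrocnemius it was 0.59 on slide 2 (1 HLS and 3 control) and 0.95 on scan day 1 (1 and 5).

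Grb10 encodes an adaptor that binds the insulin and IGF1 receptors and restrains their signal. The brightest of its 3 probes, A_52_P115787, stood at 2.05, 2.85, 2.50, 2.81 and 2.28 in HLS soleus, against 3.59, 3.07, 3.22, 3.40 and 3.09 in control soleus. Every HLS array lay below every control array, as for 2.74% of all probes in soleus, and the change was -0.78 ± 0.14 (adjusted p = 0.00165). In gastrocnemius it stood at 2.03, 1.89, 1.87, 2.10 and 2.03 in HLS mice, against 2.20, 2.25, 2.46, 2.50 and 2.28 in control mice. The gastrocnemius groups did not overlap either, as for 4.04% of all probes lower there, but the change of -0.35 ± 0.14 was not called (adjusted p = 0.218), and it is 0.42 when scaled to E1A. The soleus effect minus the gastrocnemius effect was -0.42 (95% interval -0.83 to -0.01, adjusted p = 0.817). The other Grb10 probes moved less in soleus: A_52_P40363 by -0.19 ± 0.12 and A_51_P187151 by -0.11 ± 0.14, with adjusted p of 0.47 and 0.777. Their gastrocnemius changes were 0.03 and 0.01, so the fall rests on 1 of 3 probes. Within slide 5 the soleus difference of the bright probe was -0.62 and within scan day 2 it was -0.81.

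Peg3 encodes a zinc finger protein that marks several stem and progenitor cells and acts in apoptosis and fetal growth in the mouse. Its brightest probe, A_51_P206037, stood at -0.80, -0.71, -0.997, -1.57 and -0.96 in HLS soleus, against -1.47, -1.71, -1.34, -1.99 and -1.68 in control soleus. HLS 4 lay within the control range and the other 4 HLS arrays lay above it, and the change was 0.63 ± 0.15 (adjusted p = 0.0131). In gastrocnemius the same probe stood at -1.14, -1.10, -1.44, -1.29 and -1.41 in HLS mice, against -1.54, -1.21, -1.54, -1.50 and -1.43 in control mice, groups that overlapped, with a change of 0.16 ± 0.15 (adjusted p = 0.702). The other Peg3 probes also had higher HLS means in both muscles, without a call. Of these, A_52_P235861 was well above background on only 2 of 5 control gastrocnemius arrays. A_52_P1131620 changed by 0.68 ± 0.26 in soleus and 0.55 ± 0.26 in gastrocnemius (adjusted p 0.157 and 0.338). A_52_P235861 changed by 0.39 ± 0.22 in soleus (adjusted p = 0.383), and its gastrocnemius value of 0.67 ± 0.22 (adjusted p = 0.115) is not described as a change. The muscles' effects on the brightest probe differed by 0.46 (95% interval 0.03 to 0.90, adjusted p = 0.783). Within slide 5 its soleus difference was 0.84 and within scan day 2 it was 0.80.

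**Figure D2:**
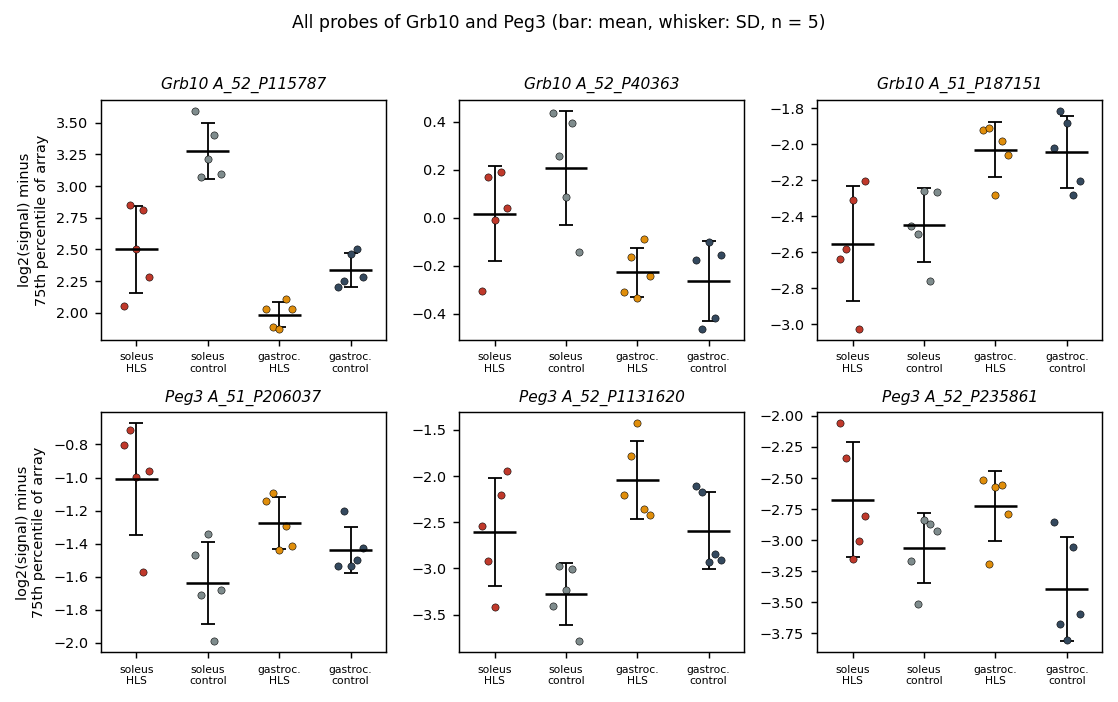
Level of each of the 3 Grb10 and 3 Peg3 probes on every array (vertical axis, log2 of signal minus the 75th percentile of the array), with group mean and SD of 5 arrays, HLS left of control within each muscle. Only Grb10 A_52_P115787 separates HLS from control arrays, and the 3 Peg3 probes have higher HLS means in both muscles. Peg3 A_52_P235861 was well above background on only 2 of 5 control gastrocnemius arrays.

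With slide as a fixed block none of the 3 soleus calls remained (adjusted p 0.745 for Cdkn1c, 0.744 for Grb10 and 0.427 for Peg3) in a fit where only slide 5 held both soleus groups. Fitted on the 10 soleus arrays alone, Grb10 remained called and Cdkn1c and Peg3 did not (adjusted p 0.069 and 0.0937). Neither was called when scaled to E1A (0.139 and 0.211), nor was Cdkn1c with scan day as a fixed block (0.073).

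The remaining genes of the growth axis gave no call between HLS and control mice. Igf2, the fetal insulin-like growth factor, is spotted 10 times on each array as A_51_P516826, with an SD over these spots of 0.064 to 0.137. It stood at 2.96, 3.38, 2.99, 3.09 and 2.66 in HLS soleus, against 2.97, 2.85, 3.07, 3.04 and 3.14 in control soleus, with a change of 0.00 ± 0.13. In gastrocnemius it stood at 3.01, 3.00, 2.76, 2.89 and 3.00 in HLS mice, against 2.30, 2.82, 2.87, 2.79 and 2.73 in control mice, with a change of 0.23 ± 0.13 (adjusted p = 0.442). The groups overlapped in both muscles. The other Igf2 probe, A_51_P516833, changed by 0.07 ± 0.19 in soleus and 0.08 ± 0.19 in gastrocnemius, without a call. H19, a noncoding RNA that restrains growth, changed by 0.33 ± 0.22 in soleus and -0.07 ± 0.22 in gastrocnemius at A_51_P142196, and its other probe by 0.29 and -0.10, none of them called. Within slide 5 the soleus differences of these probes were -0.09 and -0.17, and within scan day 2 they were 0.48 and 0.43. Igf2r, which carries Igf2 to the lysosome for breakdown, changed by 0.09 ± 0.12 in soleus and 0.15 ± 0.12 in gastrocnemius. The 95% interval of the Igf2 change in soleus was -0.26 to 0.27, and that of Igf2r was -0.17 to 0.35. That of H19 A_51_P142196 was wider, -0.13 to 0.79, so a sizeable rise there is not excluded.

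At the Dlk1 and Meg3 locus, Dlk1, a membrane protein related to Notch ligands that inhibits adipocyte differentiation, changed by 0.14 and 0.22 at its probes in soleus and by 0.13 and 0.20 in gastrocnemius, none of them called. The 5 probes of Meg3, a noncoding RNA, changed by between -0.12 and 0.15 in soleus and between -0.17 and 0.02 in gastrocnemius. Plagl1, a zinc finger transcription factor that restrains proliferation, changed by -0.12 ± 0.16 in soleus and -0.14 ± 0.16 in gastrocnemius at its brightest probe. Mest, an enzyme-like protein linked to adipocyte size, stood at 1.44, 1.45, 0.88, 1.14 and 0.58 in HLS gastrocnemius, against 1.32, 1.90, 2.25, 1.57 and 1.64 in control gastrocnemius. The groups overlapped, and the change of -0.64 ± 0.26 was not called (adjusted p = 0.237). Its soleus change was -0.22 ± 0.26. The test of the difference between the 2 muscles' HLS effects called 0 of 22 member probes with limma, against 0.0321% of all probes, and 2 had an unadjusted p below 0.05, against 2259 of 37373.

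**Figure D3:**
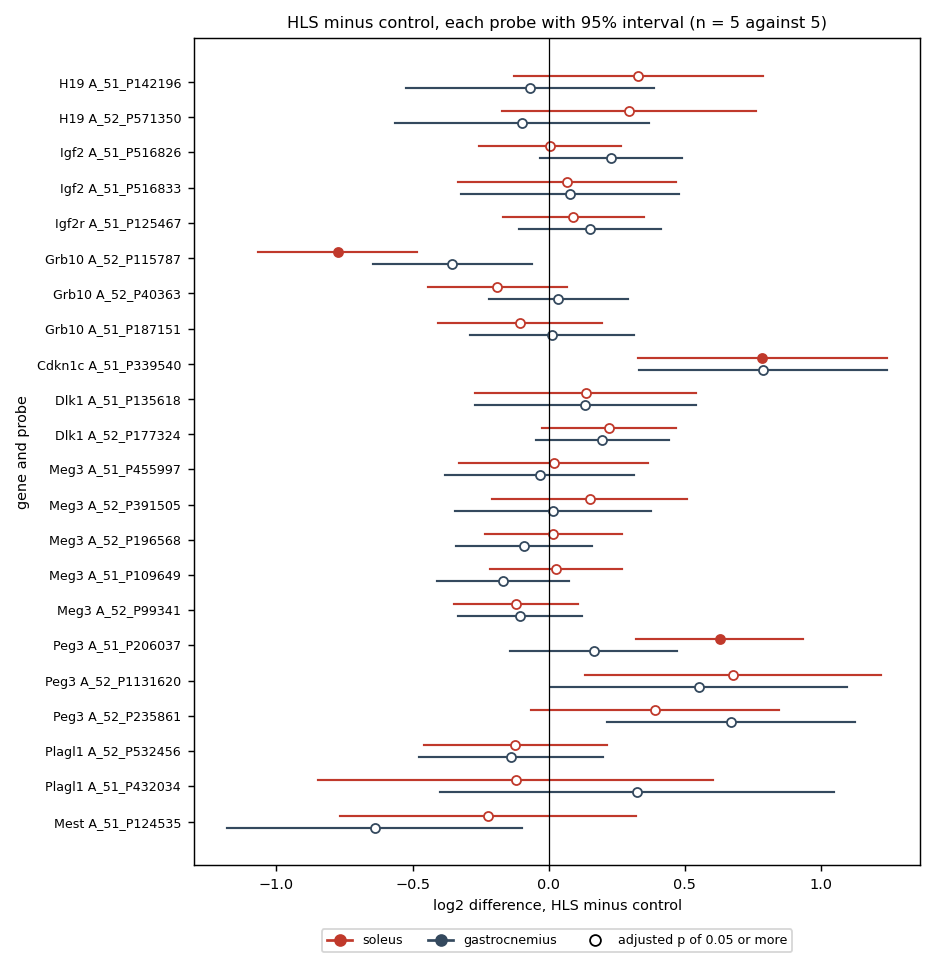
Change of each of the 22 probes (horizontal axis, log2 difference, HLS minus control) in soleus and gastrocnemius, with 95% intervals from 5 arrays against 5; filled points were called. The 3 filled points are Grb10 A_52_P115787 at -0.78, Cdkn1c at 0.78 and Peg3 A_51_P206037 at 0.63, all in soleus.

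The second comparison asks where the genes differ between soleus, a slow postural muscle, and gastrocnemius, a mixed and mainly fast one. In controls, 11 of the 22 probes were called between soleus and gastrocnemius, 5 higher and 6 lower in soleus, against 33.1% of all probes (11.1% and 22%). 1 of the 5 higher is Plagl1 A_51_P432034, which was well above background on 1 of 5 control gastrocnemius arrays and is not described as a change. In HLS mice 6 were called, 4 higher and 2 lower, against 30.6% (11.6% and 19%). The muscles did not overlap at 6 member probes in controls, 4 of them higher in soleus with Plagl1 A_51_P432034 counted, and at 2 in HLS mice, 1 of them higher, against 21.4% (7.19% higher) and 17.6% (6.92% higher) of all probes. The dimmer Dlk1 probe was lower, and Igf2r and 1 Meg3 probe higher, in soleus of both arms, and the brighter Dlk1 probe was called in controls only. H19 was lower in control soleus. Scaled to E1A, the median of all probes in the control comparison moves to 0.97, against -0.08 here, and H19, Dlk1, Peg3 A_52_P1131620 and Grb10 A_51_P187151 change sign in controls.

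The dimmer Dlk1 probe, A_52_P177324, had the lowest adjusted p of the members in both arms. It stood at -2.02, -2.16, -2.27, -2.08 and -1.86 in HLS soleus, against -1.40, -1.10, -1.09, -1.01 and -1.17 in HLS gastrocnemius. In control mice it stood at -2.70, -2.08, -2.22, -2.39 and -2.09 in soleus, against -1.45, -1.37, -1.26, -1.27 and -1.40 in gastrocnemius. The muscles did not overlap in either arm, as for 10.7% and 14.2% of all probes lower in soleus, and the differences were -0.92 ± 0.12 in HLS mice (adjusted p = 1.82e-05) and -0.95 ± 0.12 in controls (1.09e-05). The brighter Dlk1 probe differed by -0.51 ± 0.19 in HLS mice (0.0519) and -0.51 ± 0.19 in controls (0.0479), and its control call remained in 7 of the 20 fits that left out 1 array. That call was also lost under quantile normalization (-0.43, adjusted p = 0.112) and normexp background (-0.37, adjusted p = 0.0779). With scan day as a fixed block the control difference of this brighter probe was -0.04 (adjusted p = 0.966). Replicate number as a fixed block puts HLS and control mice of the same number together. With it the control calls of Dlk1 A_51_P135618 (adjusted p = 0.074), H19 A_51_P142196 (0.0677) and Peg3 A_52_P1131620 (0.0684) were lost. With the mouse as a random block all 11 control calls remained. The correlation within a mouse in that fit was -0.005, so it hardly differs from the fit without a block. With scan day as a fixed block, A_52_P177324 was the 1 member probe still called in controls, whose soleus arrays were all scanned on day 2 and gastrocnemius arrays on day 1. Muscle and scan day thus cannot be told apart among the control arrays themselves. Within day 2, 3 HLS soleus and 4 HLS gastrocnemius arrays differed by -1.06 at this probe.

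H19 at A_51_P142196 stood at 3.86, 3.46, 4.13, 3.40 and 4.43 in control soleus, against 4.16, 4.70, 4.90, 4.64 and 3.75 in control gastrocnemius, an overlap with a difference of -0.58 ± 0.22 (adjusted p = 0.0482). Its other probe differed by -0.65 ± 0.22 (0.0308), and in HLS mice the differences were -0.18 and -0.26, not called. A_51_P142196 was called in 6 and A_52_P571350 in 15 of the 20 fits that left out 1 array, with adjusted p up to 0.133 and 0.0954. The second was lost without soleus control 2 or 4 or gastrocnemius control 2, 3 or 4, and the first without any of those, without soleus control 1, without soleus HLS 2, 3 or 4 or without any 1 HLS gastrocnemius array. Igf2 at its brightest probe differed by 0.09 ± 0.13 in HLS mice and 0.31 ± 0.13 in controls (adjusted p 0.641 and 0.063). Its other probe, A_51_P516833, had the opposite sign, at -0.10 ± 0.19 and -0.09 ± 0.19 (adjusted p 0.722 and 0.742).

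Igf2r stood at 2.86, 3.12, 2.95, 3.22 and 3.42 in HLS soleus, against 3.01, 2.63, 2.68, 2.65 and 2.74 in HLS gastrocnemius, and at 3.32, 2.87, 2.97, 2.85 and 3.11 in control soleus, against 2.41, 2.54, 2.46, 2.80 and 2.75 in control gastrocnemius. The muscles did not overlap in controls and overlapped in HLS mice, with differences of 0.37 ± 0.12 in HLS mice (adjusted p = 0.0291) and 0.43 ± 0.12 in controls (0.0115). Under quantile normalization neither was called (0.213 and 0.113), and the HLS difference was lost without soleus HLS 2, 4 or 5 or gastrocnemius HLS 2, 3, 4 or 5 (0.0501 to 0.074). Mest differed by 0.94 ± 0.26 in HLS mice (0.00994) and 0.53 ± 0.26 in controls (0.126), and whether these differ is the interaction given above, which was 0.42 ± 0.37 with an adjusted p of 0.936.

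Probes of 1 gene went in opposite directions for Grb10. A_52_P115787 was higher in soleus by 0.51 ± 0.14 in HLS mice and 0.94 ± 0.14 in controls, and A_51_P187151 was lower by -0.52 ± 0.14 and -0.41 ± 0.14, all 4 called. Under quantile normalization A_51_P187151 was not called in either arm, at -0.33 in HLS mice (adjusted p = 0.0818) and -0.18 in controls (0.359), nor in HLS mice with normexp background, at -0.27 (0.0975). With scan day as a fixed block none of the 4 was called, at -0.45 in HLS mice (0.0814) and -0.27 in controls (0.65) for this probe and 0.50 (0.0528) and 0.996 (0.0574) for A_52_P115787. The control call of A_51_P187151 was lost without soleus control 1, 2 or 4 or gastrocnemius control 1, 2 or 3 (adjusted p 0.0583 to 0.105). The third probe differed by 0.25 ± 0.12 in HLS mice and 0.47 ± 0.12 in controls, of which the control difference was called (adjusted p = 0.00601). All 3 carry the same RefSeq accession in the files, and which exons they cover is not given there. Meg3 A_51_P109649, 1 of 5 probes, was higher in soleus by 0.52 ± 0.12 in HLS mice and 0.32 ± 0.12 in controls, while the other 4 differed by at most 0.15 in size and were not called. Its control call was lost without soleus control 1, 2 or 5 or any of gastrocnemius controls 1 to 4 (0.0549 to 0.104). Peg3 A_52_P1131620 was lower in soleus by -0.56 ± 0.26 in HLS mice and -0.69 ± 0.26 in controls, the second called, in 9 of the 20 fits that left out 1 array, and the other Peg3 probes were not. Plagl1 A_51_P432034 was well above background on all 5 arrays of each soleus group and on 1 of 5 in each gastrocnemius group, so it passed the filter through soleus and no size is given for its difference. Its control difference was 0.10 with scan day as a fixed block (adjusted p = 0.952). The brightest Plagl1 probe differed by 0.20 in HLS mice and 0.18 in controls, and Cdkn1c by -0.37 in each, without a call.

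**Figure D4:**
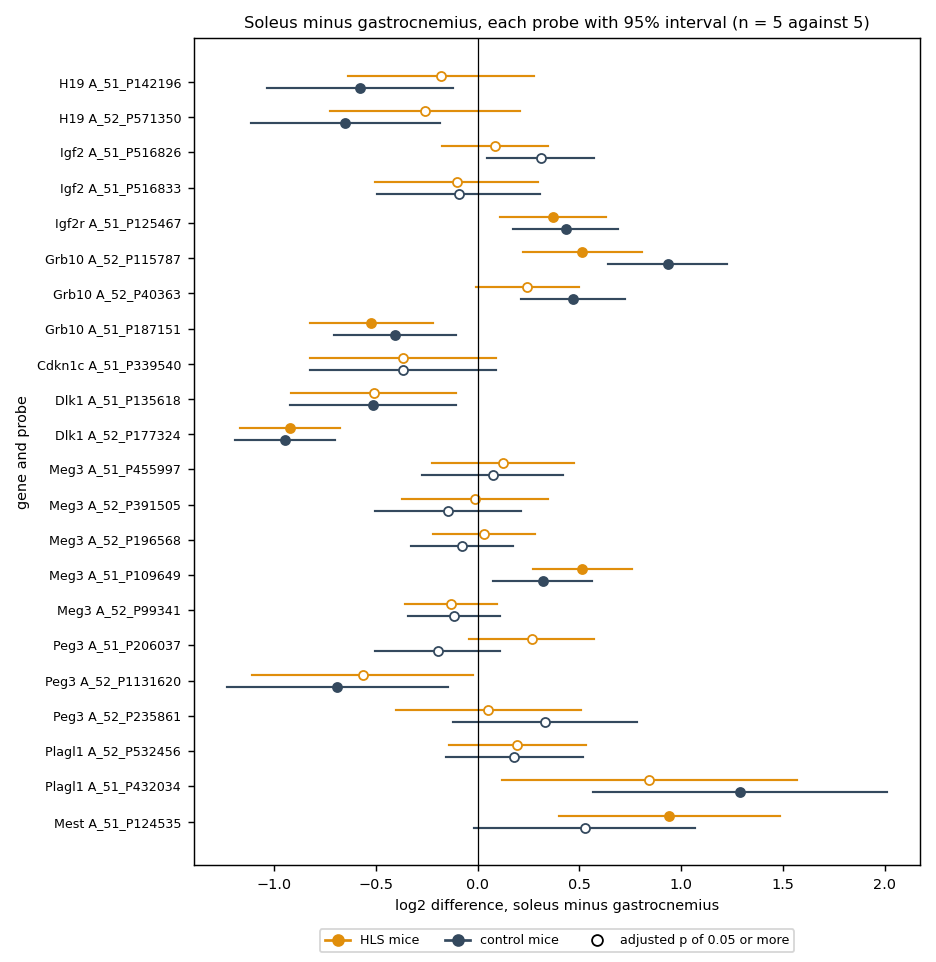
Difference of each of the 22 probes (horizontal axis, log2, soleus minus gastrocnemius) in HLS and in control mice, with 95% intervals from 5 arrays against 5; filled points were called. Dlk1 A_52_P177324 lies at -0.92 in HLS mice and -0.95 in controls, and Grb10 probes lie on both sides of 0; the point of Plagl1 A_51_P432034 rests on 1 measured array of 5 in each gastrocnemius group; scaled to E1A the control values of H19, Dlk1, Peg3 A_52_P1131620 and Grb10 A_51_P187151 change sign.

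Markers of other cell types were compared between the muscles too. Of all genes, 13.2% were higher and 17.5% lower in soleus than in gastrocnemius of HLS mice, and 12.6% and 20.7% in controls. Of 12 macrophage, 11 Schwann cell and nerve and 7 blood markers, 0 were higher in soleus of either arm. Lower in soleus were 1, 1 and 1 of these in HLS mice and 0, 2 and 1 in controls. All 11 adipocyte markers were higher in soleus in both arms, with a summed level of 259 to 530 in HLS soleus, 296 to 567 in control soleus, 154 to 185 in HLS gastrocnemius and 149 to 163 in control gastrocnemius. Of the 11, 10 were called in HLS mice and 2 in controls with scan day as a fixed block. Satellite cell and regeneration markers, 14 measured, had 3 higher and 1 lower in HLS soleus than in HLS gastrocnemius, and 4 and 1 in controls. Their sums were 483 to 635 in HLS soleus, 504 to 660 in control soleus, 328 to 475 in HLS gastrocnemius and 349 to 439 in control gastrocnemius. Of 12 endothelial markers 2 were higher in HLS soleus and 5 in control soleus, with sums of 50.3 to 63.7, 61.2 to 72.6, 43.9 to 57.2 and 48.5 to 53.5 in the same order of groups. Of 16 fibroblast and tendon markers 3 were higher in soleus of each arm, with sums of 498 to 612 in HLS gastrocnemius and 536 to 638 in control gastrocnemius, and of 11 smooth muscle and pericyte markers 2 were higher in HLS soleus and 4 in control soleus. Between arms, of the 16 fibroblast and tendon markers, 4 were lower in HLS than in control soleus, with sums of 480 to 827 and 651 to 808, and of 11 smooth muscle and pericyte markers 2 were lower, with sums of 233 to 351 and 232 to 386. Of the 14 satellite cell markers 2 were higher and 1 lower in HLS than in control soleus, against 2.29% and 3.41% of all genes. In HLS gastrocnemius 2 fibroblast and tendon markers were lower and 2 satellite cell markers higher, against 1.94% and 1.08% of all genes. No smooth muscle and pericyte marker was called there, and 1 adipocyte marker was higher and 1 muscle fibre marker lower. In each muscle 1 endothelial marker was lower and 1 Schwann cell and nerve marker higher in HLS mice. The part of these cell types in the differences above was not tested.

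Both muscles of a mouse were then set side by side, to ask whether a gene that was high in 1 muscle was high in the other. Deviations from the group means were correlated over 10 mice with an exact two-sided permutation test of the pairings within each arm. Dlk1 gave the highest value, r = 0.70 (p = 0.0353) and rho = 0.73 (p = 0.03), and Cdkn1c followed with r = 0.68 (p = 0.0728) and rho = 0.55. After Benjamini-Hochberg adjustment over the 10 genes neither passed (0.353 and 0.364 for r). Without the 2 mice farthest from the median in soleus, r was 0.31 for Dlk1 and 0.28 for Cdkn1c, so both rest on those mice. The other 8 genes had r between -0.48 and 0.38. No correlation is given within an arm, which holds 5 mice.

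Within the groups several genes deviated together from array to array. Over the 20 arrays the highest correlations of deviations were those of Plagl1 with Meg3 (r = 0.77), Igf2 with Plagl1 (0.75), Plagl1 with Mest (0.71) and Meg3 with Mest (0.67). Igf2 with Mest gave 0.64 and Igf2 with Meg3 0.63, and without the 2 arrays farthest from the median these 6 values were 0.48 to 0.75. Within soleus alone they were 0.60 to 0.89 and within gastrocnemius alone 0.54 to 0.89. Over the 45 pairs of members the median was 0.19 and 36 were positive, beside a median of 0.02 and a 95th percentile of 0.535 over all pairs of 25108 genes. The genes share the array, its scaling and the piece of tissue, so these values are a description with no test. Neighbours on a chromosome were not the closest pairs: H19 with Igf2 had r = 0.52 and Dlk1 with Meg3 0.18.

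**Figure D5:**
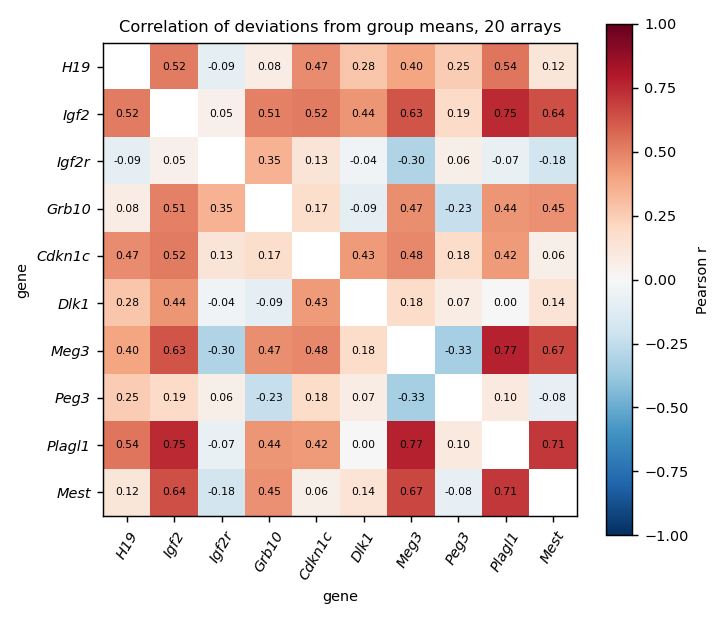
Pearson correlation of the deviations from group means between the brightest probes of each pair of genes over 20 arrays (both axes list the genes, colour and number give r). Igf2, Plagl1, Meg3 and Mest form the block of 6 values from 0.63 to 0.77, and the lowest value is -0.33, for Meg3 with Peg3.

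By root mean square difference of centred levels over the 20 arrays, the genes most like Grb10 were Znrf1 (0.15), Ppm1b (0.16) and Carhsp1 (0.17). For Mest they were Nrros (0.28), H2-K1 and the locus LOC56628 (0.29 each), and for Cdkn1c Ahcy (0.31), Dhrsx and Vps33a (0.32 each). These 3 were the members whose brightest probe had an SD of at least 0.5 over the arrays.

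Other genes of the same kind and pathways are given from lists, each gene by its brightest probe. Of 48 other imprinted genes measured, 1 rose in HLS soleus, Zrsr1, which encodes a splicing factor (0.54 ± 0.12), and 1 fell, Asb4 (-1.07 ± 0.21), against 2.29% rising and 3.41% falling of all genes. In HLS gastrocnemius Tspan32 rose (0.64 ± 0.17) and Mirg, a noncoding RNA of the Dlk1 and Meg3 domain, fell (-0.44 ± 0.11), against 1.08% and 1.94% of all genes. The median change of the list was 0.11 in soleus and -0.02 in gastrocnemius, against 0.05 and 0.01 over all genes. Between muscles 7 of 48 were higher and 7 lower in HLS soleus, against 13.2% and 17.5% of all genes, and 6 higher and 7 lower in control soleus, against 12.6% and 20.7%. The counts were 5 and 5 in HLS mice and 0 and 1 in controls with scan day as a fixed block. In controls Nnat was higher by 2.61 ± 0.64 and Slc22a2 by 1.59 ± 0.46, and Peg10, a retrotransposon-derived gene, lower by -1.04 ± 0.16.

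Of all genes, 2.29% rose and 3.41% fell in HLS soleus, and 1.08% and 1.94% in HLS gastrocnemius, beside which the next counts stand. Around Igf2, Igf2r and Grb10, 21 genes of insulin and IGF signalling were measured. In HLS soleus 3 rose, the binding protein Igfbp5 (0.95 ± 0.28), the receptor Igf1r (0.56 ± 0.14) and the kinase subunit Pik3r1 (0.52 ± 0.13), and 2 fell, the docking protein Irs1 (-2.03 ± 0.25) and the kinase Pik3ca (-0.85 ± 0.11). In HLS gastrocnemius Igf1r rose (0.59 ± 0.14), and Irs1 (-1.48 ± 0.25) and Pik3ca (-0.50 ± 0.11) fell. Around Cdkn1c, 13 cell cycle inhibitors and partners were measured. In HLS soleus 2 rose, the inhibitor Cdkn1a (1.31 ± 0.34) and the pocket protein Rb1 (0.58 ± 0.13), and the cyclins Ccnd1 (-1.88 ± 0.20) and Ccnd2 (-0.89 ± 0.20) fell. In HLS gastrocnemius Cdkn1a rose by 1.76 ± 0.34, and Ccnd1 (-1.67 ± 0.20) and Ccnd2 (-0.90 ± 0.20) fell. Of 18 Notch pathway genes, related to Dlk1, the ligand Dll1 rose in HLS soleus (1.47 ± 0.17) and HLS gastrocnemius (0.80 ± 0.17), where the target Heyl fell (-0.66 ± 0.17). Calls in these lists depended on the slides and scan days. With slide as a fixed block, of the insulin and IGF, cell cycle, Notch and other imprinted genes called here, Dll1 in soleus was the 1 that remained called. With scan day as a fixed block Igfbp5, Igf1r, Pik3r1, Ccnd2 and Asb4 were lost in soleus, and in gastrocnemius every call of these lists but those of Cdkn1a and Ccnd1 was lost. On the 10 soleus arrays alone Igfbp5, Igf1r, Pik3r1, Cdkn1a, Rb1, Ccnd2 and Zrsr1 were not called, nor were Heyl, Mirg and Tspan32 on the 10 gastrocnemius arrays alone. Of the 20 fits that left out 1 array, Igfbp5 was called in 4, Tspan32 in 5, Heyl and Mirg in 12, Igf1r in gastrocnemius in 13 and Cdkn1a in soleus in 15. Scaled to E1A, Pik3ca, Heyl and Mirg changed sign in gastrocnemius. That scaling also ended the soleus calls of Igfbp5, Igf1r, Pik3r1, Rb1 and Zrsr1 and the gastrocnemius call of Ccnd2.

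Of 19 genes that set or keep imprints, 0 were called in HLS soleus, against 2.29% rising and 3.41% falling of all genes. In HLS gastrocnemius 1 rose, against 1.08% of all genes: Dnmt3a, the de novo DNA methyltransferase. Its probe A_52_P76146 stood at 1.07, 1.10, 1.31, 1.68 and 1.31 in HLS gastrocnemius, against 0.11, 0.20, 0.14, 0.23 and 0.05 in control gastrocnemius. In soleus it stood at 1.21, 1.80, 1.36, 1.57 and 1.19 in HLS mice, against 1.91, 1.84, 1.88, 1.57 and 1.82 in control mice. The 5 control gastrocnemius arrays lay apart below the other 15. The HLS change was -0.38 ± 0.13 in soleus (adjusted p = 0.0949) and 1.15 ± 0.13 in gastrocnemius (3.59e-05), and the effects differed by -1.53 ± 0.18 (0.00156). The other Dnmt3a probes changed by 0.14 ± 0.13 and -0.24 ± 0.11 in gastrocnemius without a call, so the rise rests on 1 of 3 probes. With scan day as a fixed block the gastrocnemius change was 0.93 (adjusted p = 0.114). The gastrocnemius call was also lost with slide as a fixed block. HLS gastrocnemius 1, scanned on day 1 with the control gastrocnemius arrays, stood at 1.07, which is a single array. The part of slide and scan day in this change was not tested.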

How the data were processed

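Total RNA of 20 muscle samples was labelled with Cy3 and hybridised to one-colour Agilent arrays. The intensity values used are the deposited processed signals of the scanner files, which, per the file headers, the authors extracted with version 9.1.3.1 of Agilent's software. The labels number the animals, so replicates within a group are separate mice.

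The log2 of each intensity minus the 75th percentile of its array over noncontrol spots was taken, spots of a probe were averaged, and probes well above background on at least 4 of 5 arrays of 1 group were kept. limma 3.58.1 in R 4.3.3 fitted 4 group means on all 20 arrays, with Benjamini-Hochberg adjustment over the 37373 kept probes and a threshold of 0.05. The fit was tested on simulated data. A gene is represented by its brightest kept probe. Per the labels, both muscles were excised from each animal and carry the same animal numbers within an arm; equal numbers were taken as 1 mouse, and their deviations correlated at -0.34 to 0.17 over all probes. The members and the lists were chosen with earlier results of these data known. All member probes are reported, up to 3 genes each way from every list, and for members with an SD of at least 0.5 the 3 most similar genes. Sequences were copied from RefSeq tables. Alternatives were other scalings, filters, blocks and left-out arrays. Python 3.11.15 and matplotlib 3.10.9 were used for correlations and plots.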

Additional observations from a re-analysis of the deposited data

Results flagged for a closer look

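Single arrays stood apart from the other 4 of their group, by the ratio of gap to range, in 5 of 88 groups of a probe, where chance flags about 1 in 20 (4.4). In gastrocnemius control 1, Dlk1 A_51_P135618 was at -1.02, with the nearest other array at -0.28, and Igf2 A_51_P516826 at 2.30, with the nearest at 2.73. Igf2 A_51_P516833 was at 0.32 in gastrocnemius HLS 3, with the nearest at 0.69. Meg3 A_51_P455997 was at 4.12 in gastrocnemius control 3, with the nearest at 3.39. Meg3 A_52_P99341 was at -2.19 in soleus control 4, with the nearest at -2.46.

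The HLS effect on Dnmt3a A_52_P76146 differed between muscles in the interaction term, soleus minus gastrocnemius, by -1.53 ± 0.18 (limma, adjusted p = 0.00156). With scan day as a fixed block, added after seeing the data, it was -1.28 (adjusted p = 0.185). With slide as a fixed block 0 of 37320 probes were called for this difference. Without a block the other Dnmt3a probes gave -0.18 and 0.08.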

How the results depend on the processing

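Of the 22 member probes, 3 were called in HLS soleus, 0 in HLS gastrocnemius, 0 for the difference between them, 11 between muscles in controls and 6 in HLS mice. Leaving out 1 array in turn gave 2 to 3, 0 to 1, 0 to 0, 5 to 12 and 5 to 8 (lowest and highest). In HLS soleus the count was 1 when scaled to the E1A spike-ins, 1 on the 10 soleus arrays alone and 0 with slide as a block. In HLS gastrocnemius it was 1, Cdkn1c, under quantile normalization, normexp background, the percentile over detected probes, the filter on all 20 arrays and slide as a random block, and 21 when scaled to E1A, where the difference between muscles gave 19. Between muscles in controls it was 7 under quantile normalization, 18 when scaled to E1A, 4 of 10 with 1 probe per gene and 1 with scan day as a block, and in HLS mice 3 of 10 with 1 probe per gene. In HLS mice it was 5 with scan day as a block, of which 3 were among the 6 calls above. Under quantile normalization it was 6 there, of which 4 were among those calls. The number of genes that agreed between both muscles of a mouse stayed 0 under quantile normalization, normexp background and E1A scaling and without any 1 mouse, the alternatives run for it.

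With replicate number as a fixed block, which puts HLS and control mice of the same number together, the counts were 3, 0, 0, 8 and 7. In controls Dlk1 A_51_P135618 (adjusted p 0.074), H19 A_51_P142196 (0.0677) and Peg3 A_52_P1131620 (0.0684) were lost, and the probe gained in HLS mice, Plagl1 A_51_P432034 (0.0416), was well above background on 1 of 5 HLS gastrocnemius arrays. With the mouse as a random block, a different grouping of the arrays, the counts were 3, 0, 0, 11 and 6. The correlation within a mouse was -0.005 there, so that fit is close to the one without a block.

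A value called in either fit turned its direction only under the E1A scaling (values not called in either fit also changed sign with an array left out or a block: with slide as a block H19 in HLS soleus was -0.09 and -0.17, against 0.33 and 0.29, Dlk1 A_52_P177324 -0.06 in soleus and -0.09 in gastrocnemius, against 0.22 and 0.20, and Grb10 A_52_P40363 0.09 in soleus, against -0.19). That scaling moves all probes of a contrast together: after removing the medians of all probes, members differed from the values above by at most 2e-04. Soleus minus gastrocnemius in controls became 0.69 for Cdkn1c, 0.54 and 0.11 for Dlk1, 0.65 for Grb10 A_51_P187151, 0.48 and 0.40 for H19, 0.96 for Igf2 A_51_P516833, 0.98, 0.91 and 0.94 for Meg3, and 0.86 and 0.36 for Peg3. In HLS gastrocnemius it became 0.42 for Grb10 A_52_P115787, 0.71 and 0.68 for H19, 0.61, 0.75, 0.69 and 0.67 for Meg3 and 0.64 for Plagl1. The difference between muscles became -1.03 and -1.02 for Dlk1, -0.84, -0.99, -0.93 and -0.90 for Meg3, -0.57 and -0.91 for Peg3 and -1.02 for Plagl1.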
